A study of Mus musculus with 12 samples.

Results

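The genes described here are 8 genes tied to the residency of T cells in tissue: the transcription factors Bhlhe40, Prdm1, Zfp683 and Ahr, the surface proteins Cd69, Crtam and Cd101, and the enzyme Hpgds. They were chosen by symbol, and a gene's value is the sum of the deposited entries whose RefSeq identifier maps to that symbol. Of these 8 genes, 7 had an entry among the 24274 genes of the table, and 6 were among the 10044 genes with at least 1 FPKM (fragments per kilobase of transcript, scaled to the mapped fragments of the library) in at least 3 libraries, which were tested. Zfp683, which encodes the factor Hobit, matched no entry and is not analysed here. Hpgds reached 1 FPKM in 1 library and was not tested.

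RNA was sequenced from insulin-reactive CD4 T effector cells recovered from the pancreatic islets and the spleen of NOD.scid mice, 3 libraries for each of 4 groups. Donors were female NOD mice (WT origin) or female NOD.InsY16A Tg mice (Y16A origin), a transgenic line named for an exchange in the insulin B chain, 6 to 8 weeks old and immunised with Insulin C19A. Their splenocytes were cultured with 10 µM peptide for 2 weeks, and 5 M purified CD4 T cells (over 95% pure, under 1% Foxp3-positive) went into each female NOD.scid recipient of 8 to 10 weeks. Both origins shared the immunisation, the culture and the recipient strain, so neither is an unprimed control, and each of the 6 recipients gave 1 islet and 1 spleen library. NOD.scid mice lack T and B cells of their own and keep myeloid and NK cells, and the labels name no sort of the recovered cells.

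Resident memory T cells stay in a tissue and do not return to blood and lymph. CD69 binds the sphingosine-1-phosphate receptor S1PR1 and removes it from the surface, which blocks exit from tissue, while Hobit and Blimp-1 (the product of Prdm1) repress genes of tissue exit in mouse T cells. Bhlhe40 supports resident T cells and the production of inflammatory cytokines, and Ahr, a ligand-activated factor, helps resident T cells persist in barrier tissues. CD69 is also an early marker of antigen stimulation, so its transcript by itself does not separate the resident from the recently stimulated cell.

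T cell markers (Cd3e, Cd3d, Cd3g, Cd4 and Cd2, 5 of 5 detected) summed to 1857 to 2505 FPKM in islet WT, 2252 to 2901 in islet Y16A, 1284 to 1956 in spleen WT and 1458 to 1909 in spleen Y16A libraries. Acinar markers summed to 1015 to 4202 FPKM in islet and 2.16 to 8.28 in spleen libraries. Endocrine markers reached 26.1 to 1081 FPKM in islet WT and 0.396 to 53.9 in islet Y16A libraries. Macrophage and dendritic cell markers summed to 83.9 to 263 FPKM in islet and 240 to 743 in spleen libraries, neutrophil markers to 0 to 2.41 and 95.1 to 240, and erythroid markers to 0 to 35.5 and 39.7 to 2374. Of the macrophage and dendritic cell markers, Fcer1g held 13.3 to 528, Cd74 41.6 to 105 and Lyz2 11.5 to 81.4 FPKM. Tyrobp averaged 3.18 and 1.80 FPKM in islet (WT, Y16A) against 28.0 and 47.2 in spleen. It was called lower in islet for the mean of both origins (limma adjusted p 0.000162). Cd68 reached at most 21.9, C1qb 15.6 and C1qa 13.96 FPKM, while Csf1r reached at most 1.54 and Adgre1 1.45. Depth, estimated from the steps between low FPKM values, was 4.2 to 8.76 M fragments, and spleen WT 1 had the lowest FPKM total (162768, against 195559 to 340260 in the others). In bulk RNA, fewer cells of a type and less RNA per cell cannot be told apart.

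The 7 measured genes fell into an abundant pair and a scarce remainder. Bhlhe40 averaged 76.6 FPKM over the 12 libraries, a mean above that of 95.5% of the tested genes, and Cd69 averaged 50.8 FPKM (above 93.3%). The others averaged 2.17 (Crtam), 1.67 (Cd101), 1.59 (Prdm1), 1.18 (Ahr) and 0.201 FPKM (Hpgds). At these depths Bhlhe40 rested on an estimated 219 to 3954 fragments per library and Cd69 on 85 to 1061. Prdm1 rested on 8.3 to 66.1 and Ahr on 4.3 to 95.2, so their values carry far more counting error.

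**Figure D1:**
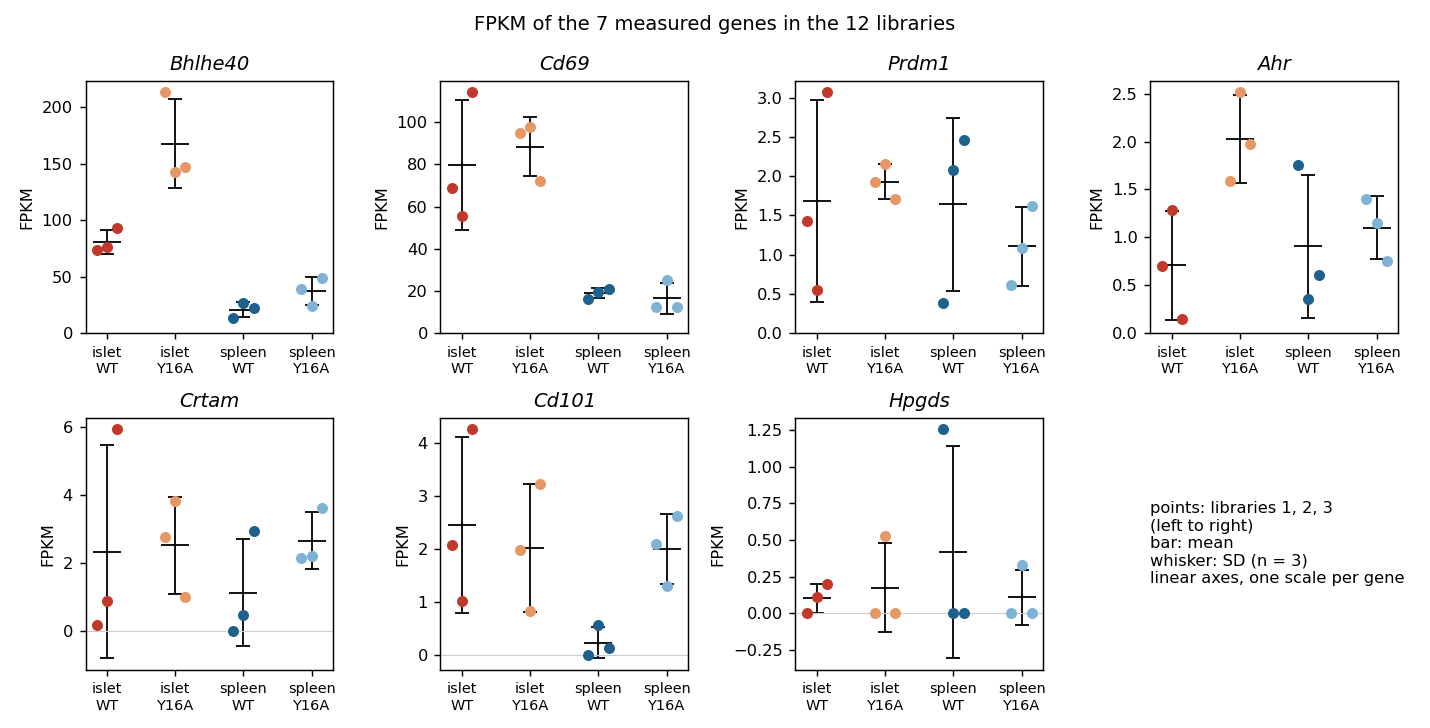
FPKM of the 7 measured genes (vertical axes, linear, each with its own scale) in the 4 groups; points are libraries 1, 2 and 3 from left to right, bars are means and whiskers SD (n = 3). Bhlhe40 and Cd69 lie higher in every islet library than in any spleen library, while the other 5 genes stay under 6 FPKM.

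Bhlhe40 was higher in islets than in spleen in both origins. It encodes a basic helix-loop-helix repressor that activated T cells induce, and it lies on chromosome 6 (chr6:108660629-108666925, GRCm38.p6). The islet WT libraries 1, 2 and 3 held 73.1, 75.8 and 93.3 FPKM (80.7 ± 10.9, SD, n = 3), and the spleen WT libraries held 13.4, 27.0 and 22.0 FPKM (20.8 ± 6.89, n = 3). The lowest islet value was well above the highest spleen value, and 7.47% of tested genes had islet WT above spleen WT without overlap. The log2 change, taken less the median change of genes above 5 FPKM here and throughout, was 1.80 (SE 0.35, 95% interval 1.06 to 2.54, limma adjusted p 0.00586). All limma p values test the change before that subtraction.

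Cells of Y16A origin gave a like difference from higher levels. The islet Y16A libraries held 213, 143 and 147 FPKM (168 ± 39.4, n = 3) and the spleen Y16A libraries 39.1, 23.9 and 48.9 FPKM (37.3 ± 12.6, n = 3). The groups did not overlap, as in 14.6% of tested genes with islet above spleen, and the log2 change was 1.85 (SE 0.35, limma adjusted p 0.00172). Within single recipients the islet value was 2.81 to 5.99 times the spleen value. That it was higher in 6 of 6 mice already follows from groups that do not overlap. The interaction, the difference between the 2 tissue changes, was 0.06 with a 95% interval of -0.99 to 1.10 (limma adjusted p 1.0).

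Cd69 followed the same tissue pattern. It encodes a C-type lectin-like receptor and lies on the same chromosome (chr6:129267324-129275375). The islet WT libraries held 68.7, 55.5 and 114 FPKM (79.5 ± 30.8, n = 3) against 16.4, 19.6 and 20.9 FPKM in spleen WT (18.9 ± 2.33, n = 3). All 3 islet values were above the spleen values, with islet WT 3 far above the other 2. The log2 change was 1.80 (SE 0.37, limma adjusted p 0.00922), and without islet WT 3 it was 1.72 with an adjusted p of 0.0586, which does not pass the threshold of 0.05.

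In Y16A origin, Cd69 stood at 95.1, 97.9 and 72.2 FPKM in islet (88.4 ± 14.1, n = 3) and at 12.4, 25.1 and 12.1 FPKM in spleen libraries (16.5 ± 7.42, n = 3). These groups were again apart, with a log2 change of 2.09 (SE 0.37, limma adjusted p 0.000932). All 6 recipients therefore had more Cd69 in islet, at 2.83 to 7.69 times the spleen value. The interaction was 0.30 (95% interval -0.80 to 1.40, limma adjusted p 1.0).

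These were the 2 genes of the 8 called between tissues. At an adjusted p under 0.05, 0.806% of all tested genes were called in WT origin and 1.15% in Y16A origin, and 2.24% for the mean of both origins, where Bhlhe40 changed by 1.82 (adjusted p 3.49e-05) and Cd69 by 1.94 (adjusted p 3.27e-05). Of the 5 T cell markers, 1 was called higher in islet for the mean of both origins and none within an origin. With their mean level set equal in every library, a setting added after seeing the data, both genes stayed called in both origins, at adjusted p of 0.00101 and 0.0215 in WT origin (Bhlhe40, Cd69). The part of acinar, endocrine and myeloid RNA in these differences was not tested.

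**Figure D2:**
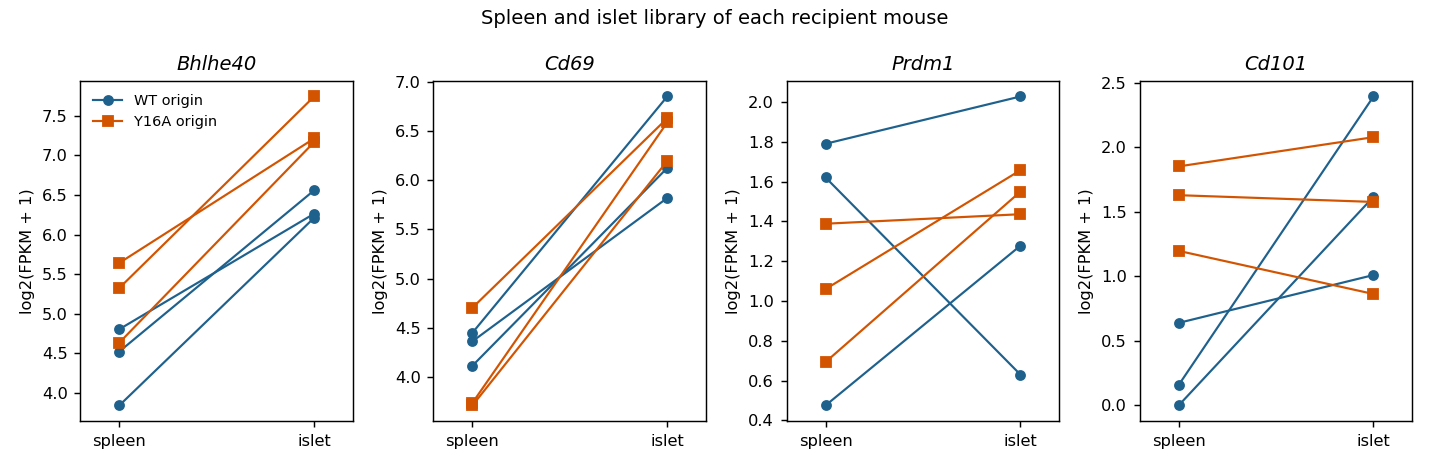
Level in the spleen and islet library of each of the 6 recipients, as log2(FPKM + 1), for 4 genes; a line joins 1 mouse, and colour and symbol give the origin. All 6 lines rise for Bhlhe40 and Cd69, while those of Prdm1 and Cd101 run in both directions.

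Between origins, Bhlhe40 values were higher in Y16A without passing the test. Every islet Y16A value was above every islet WT value, with means 2.08 times apart, whereas the spleen groups overlapped at means 1.80 times apart. Of all tested genes, 7.77% had islet Y16A above islet WT without overlap. The log2 change was 0.77 in islet (SE 0.35, unadjusted p 0.00899, limma adjusted p 0.967) and 0.74 in spleen (SE 0.35, unadjusted p 0.0333, limma adjusted p 0.919). These p values test the changes before the median change was taken off, 1.03 in islet and 0.81 in spleen. With it taken off, the 95% intervals were 0.036 to 1.51 in islet and -0.0010 to 1.48 in spleen. For the mean of both tissues, a comparison added after seeing the data, the change was 0.76 (95% interval 0.23 to 1.28, limma adjusted p 0.613), where 0.0199% of tested genes were called.

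The authors' deposited table gives Bhlhe40 at 279 FPKM in islet WT and 479 in islet Y16A, with a q-value of 0.00701, and marks it significant. Of the 9815 entries of the authors' deposited table, 0.927% are so marked, and 0.367% are marked and higher in Y16A. That table is on another scale than the library values, and the test behind its q-value is not given in the sources used here. Its ratio of 1.72 stands beside a ratio of 2.08 between the islet means of the libraries, with no median change taken off. The fit gave 1.71-fold after the median change was taken off, which is an unlike measure. The cause of the different calls was not tested.

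For Cd69 the origins lay close together. The islet means of 79.5 and 88.4 FPKM overlapped in their libraries, and the log2 change was -0.05 with a 95% interval of -0.83 to 0.73 (limma adjusted p 0.980). In spleen it was -0.33 (95% interval -1.11 to 0.45, limma adjusted p 1.0). The authors' deposited table gives 302 and 296 FPKM in islet with a q-value of 0.966. Between origins 0.0% of tested genes were called in islet and 0.0% in spleen by limma, with 472 and 521 of 10044 genes at an unadjusted p under 0.05.

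**Figure D3:**
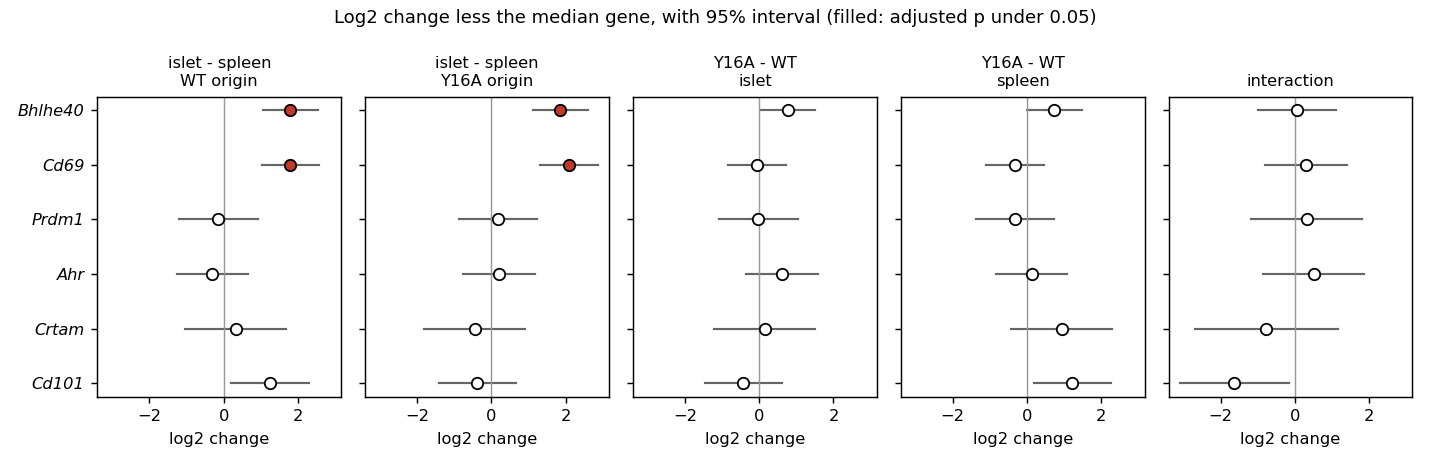
Log2 change of the 6 tested genes in each comparison, less the median change of genes above 5 FPKM (horizontal axis), with 95% intervals; filled points have a limma adjusted p under 0.05. The filled points are Bhlhe40 and Cd69 in both islet against spleen panels, and no point is filled between origins or for the interaction.

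Prdm1 was low in all 4 groups and was called in no comparison. It encodes Blimp-1, a zinc finger repressor of transcription that acts within effector and resident T cells (chr10:44437174-44528558). The islet WT libraries held 1.42, 0.548 and 3.08 FPKM, the last being the highest of all 12 values. The islet Y16A libraries sat closer, at 1.93, 2.15 and 1.71 FPKM. The spleen libraries held 0.389, 2.08 and 2.46 FPKM (WT) and 0.616, 1.08 and 1.62 FPKM (Y16A). Within Y16A origin the islet values were above the spleen values, as in 14.6% of tested genes, with a log2 change of 0.18 (SE 0.50, limma adjusted p 0.797). In WT origin the groups overlapped and the change was -0.14 (95% interval -1.19 to 0.92, limma adjusted p 1.0).

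Genes that Blimp-1 is known to repress were taken as a list of 10, of which 8 were tested. For the mean of both origins 3 fell in islet (Ccr7, S1pr1 and Klf2) and 1 rose (Il2), with a list median of -0.89 against -0.08 for all tested genes, of which 0.408% fell and 1.83% rose. Klf2, a factor that drives the genes of tissue exit, averaged 132 ± 39.1 FPKM in spleen WT and 142 ± 14.4 in spleen Y16A against 74.0 ± 38.2 and 68.0 ± 12.5 in islet (log2 change -1.23 for the mean of both origins, limma adjusted p 0.0415). Islet WT 3 held 117 FPKM of Klf2, above spleen WT 1 and 3 at 108 and 111. Il2, the T cell growth factor, was listed at 0 in the 3 spleen WT libraries and averaged 3.28 ± 2.41 FPKM in islet WT. The 3 genes that fell are also genes of recirculation, and Prdm1 itself was not called beside them.

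Ahr was also scarce, and its values depend on how its 2 entries are joined. It encodes the aryl hydrocarbon receptor (chr12:35497979-35534989). The summed values were 0.696, 1.28 and 0.145 FPKM in islet WT and 1.59, 2.51 and 1.98 in islet Y16A. The islet groups did not overlap, as with the 7.77% of tested genes given for Bhlhe40. The log2 change was 0.61 (95% interval -0.35 to 1.58, unadjusted p 0.0734, limma adjusted p 0.967). The spleen libraries held 1.76, 0.353 and 0.603 FPKM (WT) and 1.40, 1.15 and 0.747 FPKM (Y16A), which overlap. Within Y16A origin the islet values were above the spleen values, as in 14.6% of tested genes. The log2 change between tissues was 0.20 in Y16A (SE 0.46, limma adjusted p 0.757) and -0.30 in WT origin (SE 0.46, limma adjusted p 0.980), where the groups overlapped.

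The 2 deposited entries of Ahr were never both above 0 in a library. NM_013464 was listed at 0.696 and 1.28 FPKM in islet WT 1 and 2 and at 0 in the other 10 libraries, and NM_001314027 was the reverse. Both were given a length of 5548 bases, that of a GENCODE transcript of Ahr. The authors' deposited table, for NM_001314027, gives 0.136 FPKM in islet WT and 6.38 in islet Y16A with a q-value of 0.741. With the most abundant entry of each gene in place of the sum, the log2 change of Ahr in islet was 1.28 (limma adjusted p 0.778) instead of 0.61.

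Of 4 genes for proteins that hold Ahr in the cytoplasm or pair with it, the chaperones Hsp90aa1 and Hsp90ab1 rose in islet for the mean of both origins (log2 changes 1.30 and 0.76, limma adjusted p 0.00793 and 0.00528), where 1.83% of all tested genes rose. Both were called in Y16A origin (log2 changes 1.58 and 0.82, limma adjusted p 0.0356 and 0.0440). Neither was called in WT origin (1.03 and 0.70, limma adjusted p 0.391 and 0.257) or for the interaction. The p values test changes that still hold the median change, which was 0.32 in Y16A and 0.16 in WT origin. The partners Arnt and Ptges3 were not called. Of 6 classical Ahr target genes, 2 passed the filter, Nqo1 and Tiparp, and both stayed under 2 FPKM on average in every group. Neither was called, with changes of 0.04 and -0.08 for the mean of both origins. The other 4, Cyp1a1, Cyp1a2, Cyp1b1 and Ahrr, did not reach the filter.

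**Figure D4:**
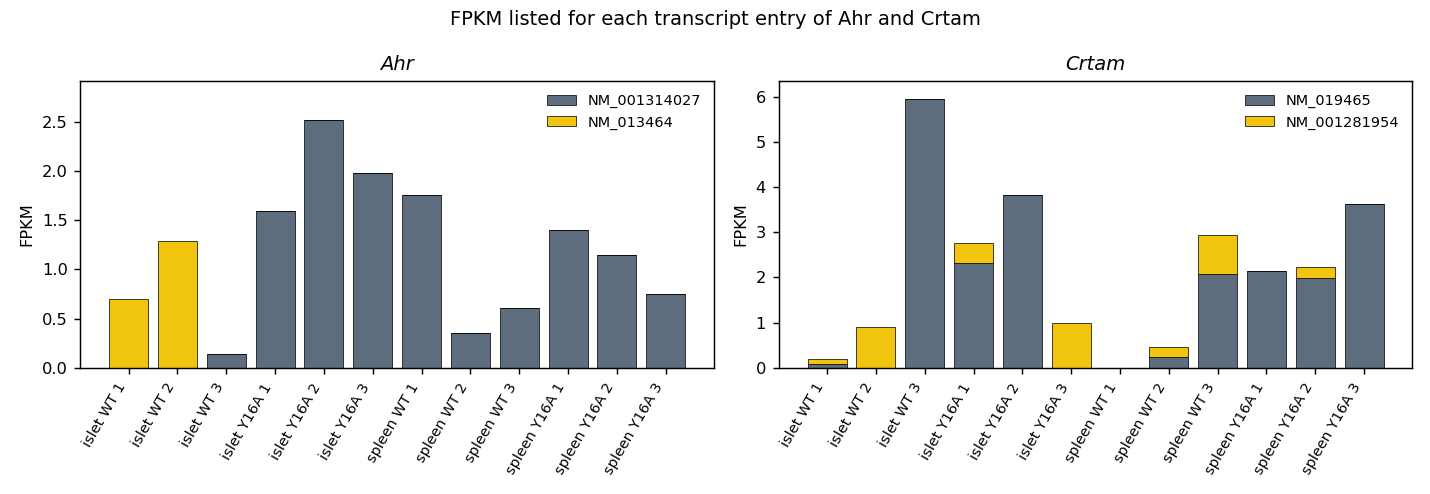
FPKM listed for each deposited entry of Ahr and Crtam in the 12 libraries, stacked (vertical axes start at 0). Ahr is listed under NM_013464 in islet WT 1 and 2 and under NM_001314027 in the other 10, and the Crtam share of NM_001281954 runs from none to all.

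Crtam encodes a receptor of the nectin-like family that marks cytotoxic CD4 T cells (chr9:40972798-41004628). Its 2 entries differ in the first exon and by 3 coding bases at the start of exon 8 (chr9:40978252-40978254, minus strand). They are shown across that junction, from the GENCODE transcripts (GRCm38) matched to each entry, with the 3 extra bases in capitals, because this is all the coding difference that separates the entries at this exon.
NM_019465: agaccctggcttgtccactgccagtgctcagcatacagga
NM_001281954: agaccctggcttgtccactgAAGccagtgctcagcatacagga

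Summed over both entries, Crtam ranged from 0 (spleen WT 1) to 5.95 FPKM (islet WT 3). The group means were 2.34 ± 3.14 FPKM in islet WT, 2.53 ± 1.43 in islet Y16A, 1.14 ± 1.58 in spleen WT and 2.67 ± 0.830 in spleen Y16A (SD, n = 3). In islet WT the 3 libraries ran from 0.188 to 5.95 FPKM, a spread wider than any difference between groups. No comparison was called. The change between tissues was 0.32 in WT (95% interval -1.04 to 1.68) and -0.45 in Y16A origin (95% interval -1.81 to 0.91). Markers of NK and CD8 T cells summed to 36.9 to 115 FPKM in islet and 41.2 to 134 in spleen libraries. Most of this was Gzma, at 21.3 to 115 FPKM, and Eomes held 0.365 to 22.7. Cd8a reached at most 7.66, Cd8b1 13.8, Klre1 5.03, Ncr1 3.77 and Klrb1c 1.15 FPKM. The part of these markers in the Crtam values was not tested.

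Most of the Crtam signal fell on NM_019465, which alone was listed above 0 in islet WT 3, islet Y16A 2, spleen Y16A 1 and spleen Y16A 3. NM_001281954 alone was listed in islet WT 2 and islet Y16A 3, at 0.899 and 1.00 FPKM. Within a group, the listed entry thus differed between libraries. None of 6 genes for its ligand Cadm1, its partner Scrib and related receptors was called between tissues. Cd226, a costimulatory receptor of that family, averaged 12.3 ± 2.05 FPKM in islet WT and 6.25 ± 1.85 in spleen WT (log2 change 0.73, limma adjusted p 0.566).

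Cd101, an immunoglobulin family protein found on resident and on exhausted T cells and on myeloid cells (chr3:100992189-101029553), differed from the rest in where it was low. The spleen WT libraries held 0, 0.558 and 0.116 FPKM, below every library of the other 3 groups. The islet WT libraries held 2.07, 1.01 and 4.26 FPKM, the islet Y16A libraries 1.98, 0.820 and 3.22, and the spleen Y16A libraries 2.09, 1.29 and 2.61. Spleen WT was thus apart both from islet WT and from spleen Y16A, whereas the Y16A tissues overlapped.

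No Cd101 difference passed the test. The log2 change was 1.25 between tissues in WT origin (SE 0.50, unadjusted p 0.0110, limma adjusted p 0.357) and 1.22 between origins in spleen (SE 0.50, unadjusted p 0.0179, limma adjusted p 0.872). Between tissues in Y16A origin it was -0.38, and the interaction was -1.63 (SE 0.70, unadjusted p 0.0519, limma adjusted p 1.0). With a pseudocount of 0.1 in place of 1, the change between tissues in WT origin was 3.01 and that between origins in spleen 2.98, at adjusted p of 0.227 and 0.768. In 7.47% of tested genes islet WT was above spleen WT without overlap, and in 5.6% spleen Y16A was above spleen WT. Macrophage and dendritic cell markers summed to 240 to 338 FPKM in spleen WT and 242 to 743 in spleen Y16A. In spleen Y16A 1, Fcer1g alone held 528 FPKM, against 91.5 and 80.8 in spleen Y16A 2 and 3 and 78.4 to 199 in spleen WT. Of 7 such markers tested, 5 had a change above 0 between origins in spleen. None was called, with 0.0% of all tested genes called. Spleen WT and spleen Y16A means were 2.05 and 9.15 FPKM for C1qb, 25.8 and 52.9 for Lyz2 and 28.0 and 47.2 for Tyrobp. Cd68 went the other way, at 11.6 and 4.68 FPKM. The part of these markers in the Cd101 values was not tested.

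Hpgds encodes hematopoietic prostaglandin D synthase, an enzyme of mast cells and of some type 2 T cells (chr6:65117293-65144981). It was listed at 0 in 7 of 12 libraries, and its highest value was 1.26 FPKM in spleen WT 1, an estimated 23.1 fragments. In the other libraries it reached at most 0.527 FPKM (islet Y16A 2). The sum of 8 mast cell and basophil markers was 0 to 0.0780 FPKM in spleen WT, the group of its highest value, and 0.617 to 8.75 in spleen Y16A, with Cpa3, Tpsb2 and Mcpt4 at 0 in all 12 libraries. Of 12 further prostaglandin genes 4 passed the filter, and none was called. Ptger4, a receptor of prostaglandin E2, was the most abundant of these at 20.9 ± 6.98 to 38.8 ± 14.2 FPKM by group.

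Other genes of the residency programme, a list of 22 drawn up with earlier results of these data known, showed a tissue difference beside Bhlhe40 and Cd69. Of 21 tested, 2 rose in islet in WT origin (Rgs1 and Nr4a1) and 9 in Y16A origin (also Rgs2, Ccr8, Cxcr6, Litaf, Nr4a2, Cd160 and P2rx7), and none fell. The list medians were 0.71 and 1.06, against -0.05 and -0.09 for all tested genes, of which 0.627% and 0.956% rose in islet. Whether the list differed between origins shows only gene by gene, and none of the 21 was called for the interaction, where limma called 0 of 10044 genes and 430 had an unadjusted p under 0.05. Cxcr6, the receptor that holds resident T cells near CXCL16, averaged 207 ± 57.5 FPKM in islet WT and 342 ± 84.7 in islet Y16A against 76.0 ± 36.0 and 89.3 ± 27.9 in spleen. The change was 1.62 in Y16A origin (limma adjusted p 0.00501) and 1.34 in WT origin (adjusted p 0.0604).

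The integrin chains Itgae (CD103) and Itga1 (CD49a), which anchor resident cells, and the regulators Runx3 and Notch1 were not called in either origin; these 4 are named after their values were seen. In the list of 15 recirculation genes, Ccr7 fell in both origins, Rasgrp2 fell in Y16A origin, and S1pr1 and Klf2 fell for the mean of both. Of all tested genes 0.179% fell in WT and 0.199% in Y16A origin. S1pr1, the exit receptor that CD69 removes from the surface, averaged 22.1 ± 17.9 FPKM in islet WT against 45.8 ± 4.05 in spleen WT (log2 change -1.45, limma adjusted p 0.353), and 18.7 ± 6.94 against 51.4 ± 10.1 in Y16A origin (-1.78, adjusted p 0.198). Islet WT 3 held 42.5 FPKM of S1pr1, within the spleen WT range of 42.1 to 50.1, against 9.06 and 14.7 in islet WT 1 and 2. For the mean of both origins the change of S1pr1 was -1.62 (adjusted p 0.0268). These values are of the transcript, and the surface protein was not measured here. None of the 15 rose.

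**Figure D5:**
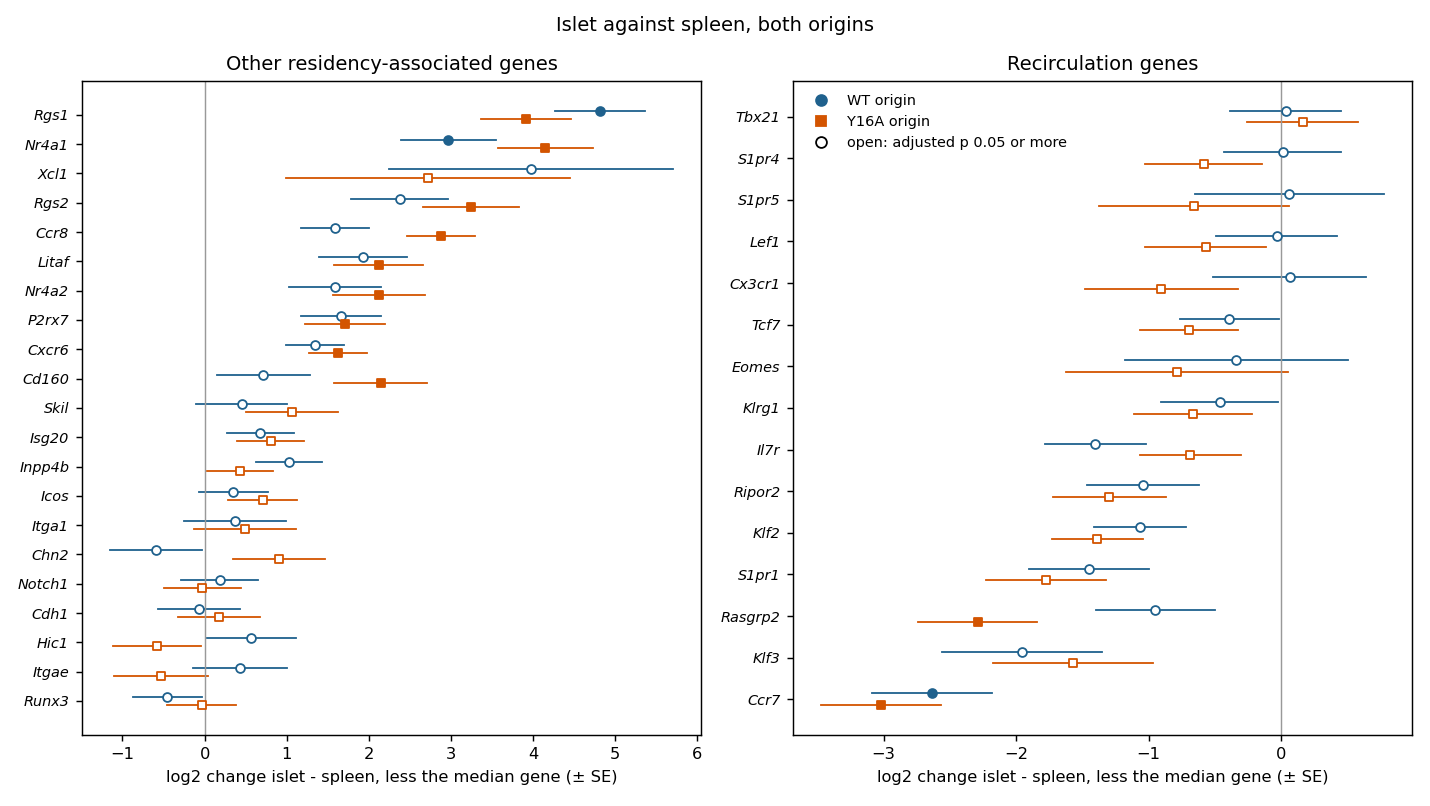
Log2 change of islet against spleen, less the median change of genes above 5 FPKM (horizontal axes), with SE bars, for 21 other residency genes and 15 recirculation genes; circles are WT origin, squares Y16A origin, and filled symbols have a limma adjusted p under 0.05. All filled symbols lie above 0 in the residency panel and below 0 in the recirculation panel.

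Among genes that Bhlhe40 is known to act on, of 3 cytokine genes Ifng rose in both origins (7.78 ± 5.13 to 144 ± 33.9 FPKM from spleen to islet in WT, 9.66 ± 3.69 to 200 ± 91.2 in Y16A, limma adjusted p 1.05e-05 and 9.80e-06), and Csf2 and Il10 were not called. Il10, which Bhlhe40 represses in mouse CD4 T cells, stood at 1.06, 0.878 and 10.9 FPKM in islet WT and at 0.977, 0 and 0.653 in islet Y16A libraries. It was listed at 0 in all 3 spleen WT libraries and in 2 of 3 spleen Y16A libraries. Islet WT 3 alone carried the high islet WT mean, and the other 2 islet WT values lay near the highest islet Y16A value. The change was 1.68 between tissues in WT origin (limma adjusted p 0.308) and -1.53 between origins in islet (limma adjusted p 0.967), so its values ran with Bhlhe40 in the first comparison and against it in the second, neither passing the test. Of 8 clock genes 5 were tested and none was called in any comparison. Dbp, an output gene of the clock, was listed at 0 in the 3 spleen WT libraries and averaged 4.11 ± 2.12 FPKM in spleen Y16A (unadjusted p 0.000538, limma adjusted p 0.338).

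Across the 12 libraries Bhlhe40 and Cd69 had a Pearson correlation of 0.822 on the log2(FPKM + 1) scale. Among 4202 other genes that averaged 5 FPKM or more, those most like Bhlhe40 were Nfkbia (0.959), Cxcr6 (0.947) and Tnfaip3 (0.944). Those most like Cd69 were Dusp1 (0.974), Fos (0.967) and Ctla4 (0.956). Dusp1 averaged 90.0 and 154 FPKM in islet WT and Y16A against 0.151 and 0.593 in spleen WT and Y16A. The nearest gene to Prdm1 was Ubap2l (0.916), to Ahr Gclm (0.788), to Crtam Rrp9 (0.897) and to Cd101 Emc4 (0.893). These figures describe libraries that share tissue and origin differences, and no test was made of them.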

How the data were processed

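RNA was measured in 12 libraries. Cells were lysed in Triton X-100, the RNA was reverse transcribed and amplified, and libraries were made with Nextera XT, per the labels' protocols. The submitters' processing notes name TopHat 1.0.0, Cufflinks and mm9. The authors deposited a matrix of FPKM per RefSeq entry and library, and a table of their own comparison of islet Y16A with islet WT, with FPKM, p-values and q-values. Of 36285 matrix entries, 99.18% matched a gene symbol. Groups follow the titles and the series' design; the genotype entries of the labels, with NOD on all islet and NOD.Y16A on all spleen libraries, go against these.

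A gene was tested if 3 or more libraries reached 1 FPKM, on the log2(FPKM + 1) scale, with limma 3.58.1 (R 4.3.3), 4 group means, 8 residual degrees of freedom, empirical Bayes with trend and robust variance, and Benjamini-Hochberg adjustment over 10044 genes. A pseudocount of 1 understates changes of low genes. Printed log2 changes are less the median change of genes with a mean above 5 FPKM: 0.16 and 0.32 for islet against spleen (WT, Y16A), 0.25 for their mean, 0.26 and 0.07 for Y16A against WT (islet, spleen), 0.16 for the mean of both tissues and 0.16 for the interaction. The p values come from the changes before that subtraction, and the intervals cover the spread between libraries only. Estimated fragments per gene are approximate. The fit was tested on simulated data.

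By the titles each recipient gave both tissues, which pairs them; deviations of same-mouse libraries correlated at 0.009 to 0.087, and a block for the mouse (statmod 1.5.0, consensus correlation 0.093) was an alternative, beside another pseudocount, no filter, quantile normalization, median centring, the most abundant entry per gene, and leaving out each library. T cell marker centring and the mean of both tissues were added after seeing the data. Genes named are all 8 members, up to 4 genes per list and comparison with the smallest p, further list genes past the threshold, and the 3 genes most correlated with each tested member. The members and lists were chosen with earlier results of these data known. Some list genes are not reported here, and the lists are counted without them.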

Additional observations from a re-analysis of the deposited data

How the results depend on the processing

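Bhlhe40 and Cd69 stayed called between tissues in both origins under all 7 other settings, and under every omission of a library for Bhlhe40; for Cd69 the call in WT origin was lost without islet WT 3. Leaving out a library gave 1 to 2 of the 8 genes called in WT origin and 2 in Y16A origin. With the replicate block for the mouse, 96 (WT), 134 (Y16A) and 277 genes (mean of both origins) were called between tissues, and no call of a member changed. For the mean of both origins, 137 genes were called with no filter and 146 in the transcript fit, against 225. Between origins in islet, a pseudocount of 0.1 gave 1 called gene; in spleen the pseudocount gave 1, quantile normalization 1 and the transcript fit 5, none of them one of the 8 genes. Without single libraries these counts ran from 0 to 1 in islet, 0 to 1 in spleen and 0 to 1 for the interaction, and from 0 to 3 for the mean of both tissues, where the 2 genes called became 0 under all 7 other settings.

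Changes that were not called and lay near 0 took the other sign. Under quantile normalization the change in islet between origins was 0.11 for Prdm1 and 0.000405 for Cd69, and that between tissues (mean) was 0.081 for Ahr and 0.016 for Crtam. With a pseudocount of 0.1, Prdm1 in islet between origins was 0.19 and Crtam between tissues (mean) 0.18. In the transcript fit Prdm1 between tissues (mean) was -0.010. Without single libraries the changes in WT origin between tissues ran from -0.36 to 0.14 for Prdm1, -0.64 to 0.19 for Ahr and -0.20 to 0.83 for Crtam. In Y16A origin Prdm1 ran from -0.037 to 0.33. For the mean of both origins the ranges were -0.10 to 0.16 (Prdm1), -0.22 to 0.20 (Ahr) and -0.33 to 0.18 (Crtam). Between origins in islet they were -0.30 to 0.14 (Prdm1), -0.22 to 0.056 (Cd69) and -0.21 to 0.68 (Crtam), and in spleen -0.20 to 0.61 (Ahr). The interaction of Bhlhe40 ran from -0.16 to 0.27. The causes were not tested. Prdm1, Ahr, Crtam and Cd101 rest on few fragments, which limits what can be seen in them.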
